A study of Homo sapiens with 6 samples.

Results

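The checkpoint and cytokine genes CD274, CXCL8, IL6, PTGS2 and CCL2 were examined in the human lung cancer cell line H1299, which is of the non-small cell type, by chromatin immunoprecipitation and sequencing (ChIP-seq) of YAP and of TAZ. A peak belonged to a gene if it overlapped the gene's span widened by 30 kb on each side. The spans were given to the nearest kb on the human build hg19. The 5 windows added up to 344 kb and held 134 of the 1389618 deposited peaks on chromosomes 1 to 22 and X. These were 44 and 29 peaks in YAP replicates 1 and 2, and 35 and 26 in TAZ replicates 1 and 2. Cells of every group, inputs among them, went without serum for 18 hours before their chromatin was prepared. No genotype or drug differed between the groups: the YAP group (2 libraries, anti-YAP antibody), the TAZ group (2 libraries, anti-TAZ antibody) and the input group (2 libraries, no antibody) came from 1 cell line. The labels do not say that the replicates came from separate cultures, so each spread given is that between libraries and may be technical.

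YAP and TAZ are paralogous transcriptional coactivators held in check by the Hippo kinases. They do not bind DNA themselves but reach it through TEAD proteins, often at enhancers that also bind AP-1, far from the gene they act on. CD274 encodes the checkpoint ligand PD-L1, which restrains T cells through their PD-1 receptor. CXCL8 (interleukin-8) draws neutrophils and CCL2 draws monocytes. IL6 is a cytokine that signals through STAT3, and PTGS2 (COX-2) is the inducible enzyme of prostaglandin synthesis. All are inducible genes, and CXCL8, IL6, CCL2 and PTGS2 are textbook targets of NF-kB. They have been discussed as genes through which YAP or TAZ could shape the surroundings of a tumour.

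Near the starts of these genes no peak was found with either antibody. In each of the 4 libraries, 0 of the 5 genes had a deposited peak within 1 kb of the gene start, that is 0 of 20 pairs of a gene and a library. For comparison, a 2 kb stretch anywhere on these chromosomes was overlapped by a peak in 40.8% of cases in YAP replicate 1 and 36.2% in YAP replicate 2, and in 33.6% and 32.9% in TAZ replicates 1 and 2. The gene start was known only to about 1 kb, from the rounded span, and the nearest peak of all, in CD274, began 1.76 kb away. The promoter sequences below, 250 bases before the transcript start, are shown because they are the stretches on which the antibodies left no called peak. They come from RefSeq with the build GRCh38.p14, not hg19, and 4 of the 5 genes, all but CCL2, matched the table. Capitals mark matches on either strand to TGANTCA (AP-1) and GGNNNTTCC (NF-kB); GGAATG (TEAD) was searched too.
CD274, chr9:5450292-5450541, forward strand: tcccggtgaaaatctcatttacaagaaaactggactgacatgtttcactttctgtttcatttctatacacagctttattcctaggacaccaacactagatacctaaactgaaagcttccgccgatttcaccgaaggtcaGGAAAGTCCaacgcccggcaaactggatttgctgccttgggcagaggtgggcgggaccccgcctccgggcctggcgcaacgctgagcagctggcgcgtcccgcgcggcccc
CXCL8, chr4:73740319-73740568, forward strand: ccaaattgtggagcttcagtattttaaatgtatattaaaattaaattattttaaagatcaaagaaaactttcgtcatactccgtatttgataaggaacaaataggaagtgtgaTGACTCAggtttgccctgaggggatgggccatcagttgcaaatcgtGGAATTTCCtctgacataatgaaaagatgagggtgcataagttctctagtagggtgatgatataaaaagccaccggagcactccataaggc
IL6, chr7:22726950-22727199, forward strand: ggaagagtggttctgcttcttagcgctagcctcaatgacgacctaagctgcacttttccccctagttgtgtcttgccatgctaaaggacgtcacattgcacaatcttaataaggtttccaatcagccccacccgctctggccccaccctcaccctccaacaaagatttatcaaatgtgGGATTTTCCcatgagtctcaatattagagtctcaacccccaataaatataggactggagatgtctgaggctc
PTGS2, chr1:186680424-186680673, reverse strand: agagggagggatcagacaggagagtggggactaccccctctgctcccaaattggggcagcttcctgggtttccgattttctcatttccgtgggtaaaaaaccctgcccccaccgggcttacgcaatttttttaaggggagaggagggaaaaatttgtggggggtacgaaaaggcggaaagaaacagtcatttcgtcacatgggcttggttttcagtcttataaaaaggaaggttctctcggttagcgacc

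The CXCL8 promoter held 1 AP-1 match, TGACTCA, from 137 to 131 bases before the start, and 1 NF-kB match, GGAATTTCC, from 91 to 83. The IL6 promoter held the NF-kB match GGATTTTCC from 72 to 64 bases before the start, and the CD274 promoter held GGAAAGTCC from 111 to 103. The PTGS2 promoter held no match to any of the 3 patterns, and none of the 4 promoters held the TEAD pattern. Among all 35116 promoter windows of this length in the table, 11.9% held the TEAD pattern, 6.57% the AP-1 pattern and 17.1% the NF-kB pattern. No match overlapped another. A match is a run of letters only. Its absence from this window says nothing of a site elsewhere, nor of a site within the window whose letters the pattern does not allow.

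The lists behind these values were long, and the read depth of the libraries is unknown. They held 392120 and 353336 peaks with the YAP antibody, against 333505 and 310657 with the TAZ antibody, and the lowest −log10 q in a list was between 1.00 and 1.02. A stretch with no peak is therefore one that did not reach the authors' threshold, at a depth that cannot be read from the lists; it is not shown to be unbound. Peak names inside all 4 lists pointed to 1 common input, while the names of the lists themselves gave replicates 1 and 2 separate inputs, so which input was used is not settled. Overlap between lists could in part come from shared input reads, which was not tested.

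**Figure D1:**
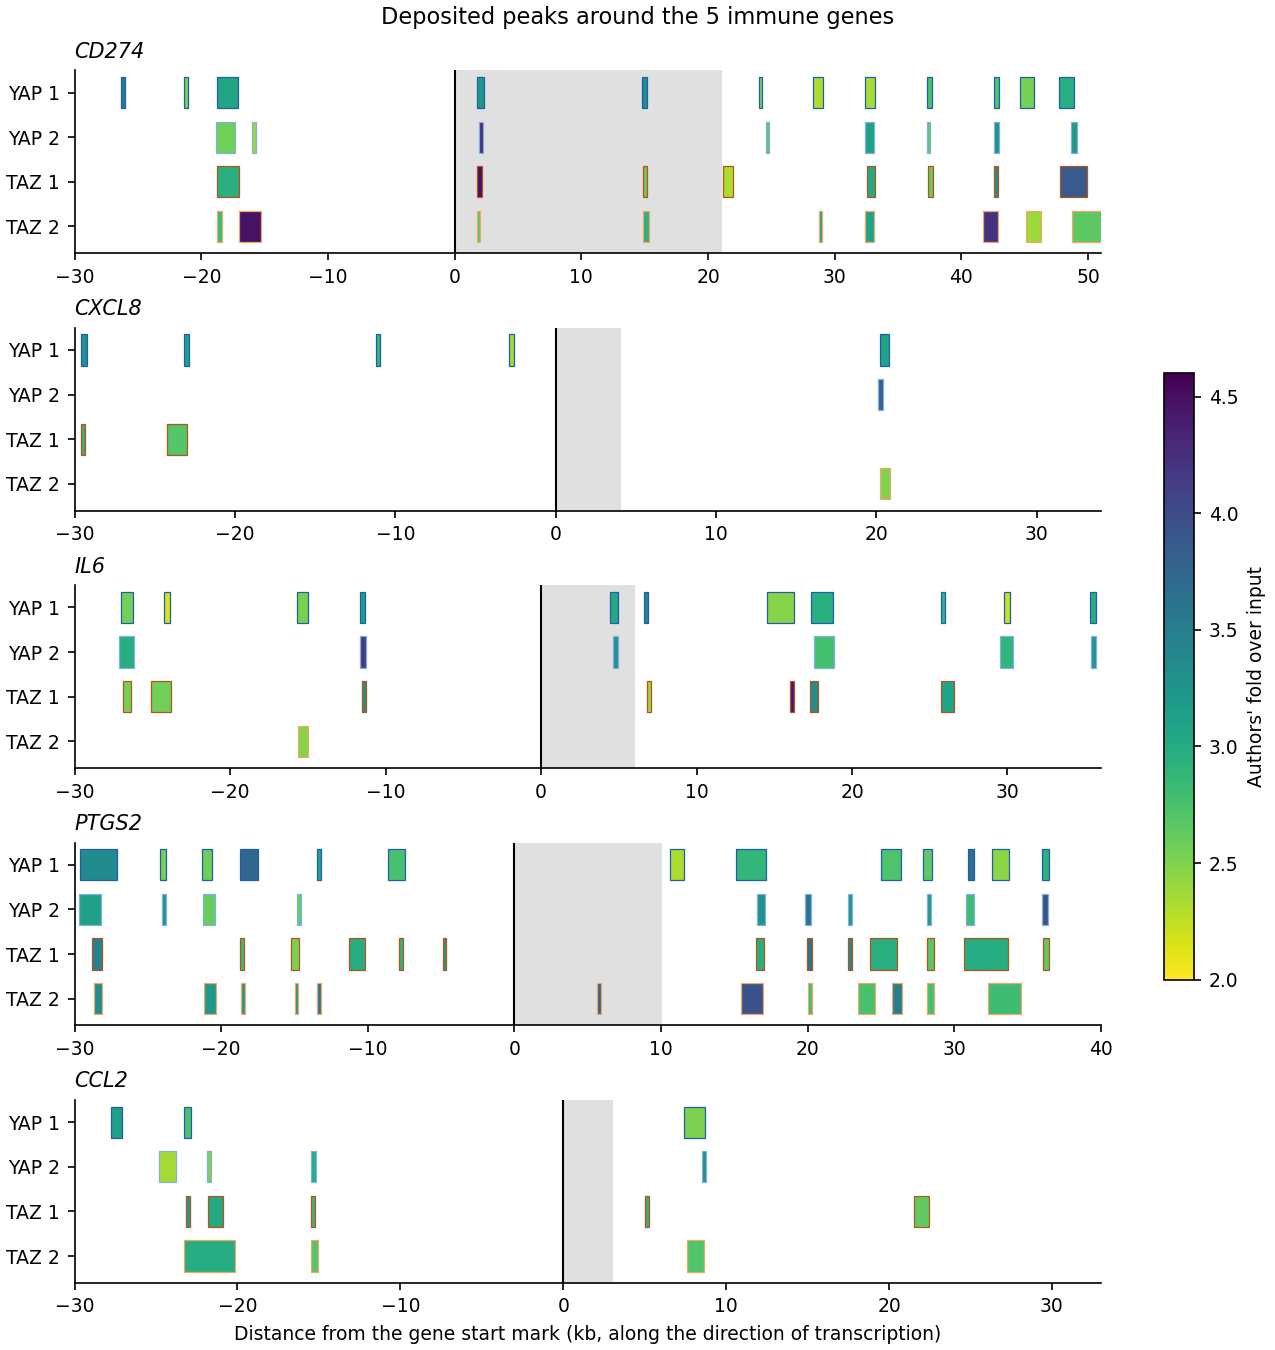
Deposited peaks in the 5 gene windows, by distance from the gene start mark in kb along the direction of transcription; the grey band is the gene span, and each row of bars is 1 library. Bar colour gives the authors' fold over input. No bar lies within 1 kb of any gene start, CXCL8 and CCL2 have no bar inside the gene, and the peak 1.8 kb inside CD274 is present in all 4 libraries.

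CD274 was the only gene of the 5 with a region inside its span that had a peak in all 4 libraries. Its span was also the longest. With equal flanks its window was 81 kb wide, against 64 kb at CXCL8, 66 at IL6, 70 at PTGS2 and 63 at CCL2. How often stretches of each span's length hold such a region was not computed. Peaks of the 4 libraries were merged into regions where they overlapped by at least 1 bp, in chains where need be. A library with several peaks in a region is given by the fold of its peak with the highest −log10 q. That need not be its highest fold. The region in CD274 lay on chromosome 9 from 5451758 to 5452288, about 1.76 to 2.29 kb after the start mark. There, YAP replicates 1 and 2 had a fold over input, as the authors' caller gave it, of 3.21 and 4.28, and TAZ replicates 1 and 2 had 4.50 and 2.68. The antibodies therefore overlapped, and within each antibody 1 library was higher than the other. Whether the region is exonic or intronic was not determined, since no annotation of hg19 was used here.

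Outside the gene, 4 more regions of the CD274 window had peaks in all 4 libraries. The region with the best combined rank was on the downstream side, from 5491719 to 5492935, whose fold was 2.71 and 3.26 in the YAP lists, against 3.32 and 4.21 in the TAZ lists. The region at the downstream border, from 5497679 to 5501832, had 2.96 and 3.20 with the YAP antibody, against 3.87 and 2.64 with the TAZ antibody, and ran past the window's end. A region upstream, from 5431144 to 5434693, had 3.07 and 2.57 in the YAP lists, against 2.95 and 4.49 in the TAZ lists. TAZ replicate 2 was far above the other 3 libraries in it, but its peak, from 5432942 to 5434693, lay beside the highest YAP peaks of the region and did not overlap them. PDCD1LG2, which encodes the second PD-1 ligand PD-L2, is the next protein-coding gene downstream, and PLGRKT, a plasminogen receptor gene, lies on the other side. Whether any of these regions lies inside a neighbouring gene was not determined, so a region of the window need not belong to CD274.

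In number, the CD274 window held 12 and 8 peaks with the YAP antibody, against 8 and 9 with the TAZ antibody. They covered 9.78% and 5.22% of the window for YAP and 8.15% and 10.3% for TAZ. The values of the antibodies overlapped. Of the 14 merged regions, 3 lay upstream, 2 overlapped the gene and 9 lay downstream. The second region in the gene, from 5464820 to 5465312, lacked a peak in YAP replicate 2.

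CXCL8 was the emptiest of the windows. It held 5 peaks in YAP replicate 1 and 1 in YAP replicate 2, against 2 in TAZ replicate 1 and 1 in TAZ replicate 2. Coverage of the window was 2.90% and 0.472% in the YAP lists, against 2.38% and 0.947% in the TAZ lists. No library had a peak in the gene, and none of its 5 merged regions had peaks in all 4 libraries. The region shared most widely lay about 20 kb downstream, on chromosome 4 from 74626124 to 74626861. YAP replicates 1 and 2 had folds of 3.08 and 3.80 there, TAZ replicate 1 no peak, and TAZ replicate 2 a fold of 2.50. The peak nearest to the gene was found in YAP replicate 1 alone, from 74603097 to 74603402, upstream of the start mark, with a fold of 2.35.

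CCL2 was also sparsely covered. Its window held 3 and 4 peaks with the YAP antibody, against 5 and 3 with the TAZ antibody, and coverage was 3.77% and 3.14% in the YAP lists, against 4.21% and 7.37% in the TAZ lists. TAZ replicate 2 stood apart from the other libraries, in large part through 1 peak of 3154 bp, the widest in the window. That peak spanned the 1 region with peaks in all 4 libraries, on chromosome 17 from 32558703 to 32561856, about 20 to 23 kb upstream. The fold there was 2.75 and 2.51 with the YAP antibody, against 3.17 and 2.98 with the TAZ antibody, each of the TAZ values above both YAP values. The peaks of the 2 YAP libraries did not overlap each other there and were joined only through the wide TAZ replicate 2 peak; without that library no region at CCL2 had peaks in all of the others. CCL7, the gene of another monocyte chemokine, is the next gene downstream. The region farthest downstream, from 32603525 to 32604471, had a peak in TAZ replicate 1 alone, with a fold of 2.63.

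IL6 varied widely between libraries. The window held 11 and 6 peaks for YAP, against 7 and 1 for TAZ. Coverage was 11.0% and 6.27% in the YAP lists, against 6.03% and 1.03% in the TAZ lists, so both YAP values lay above both TAZ values, by little in the case of YAP replicate 2 and TAZ replicate 1. None of the 11 merged regions had peaks in all 4 libraries, because TAZ replicate 2 had only 1 peak there. Without that library, 3 regions had peaks in the 3 others. One of these, on chromosome 7 from 22754329 to 22754755, about 11 to 12 kb upstream, reached 3.17 and 4.15 in YAP replicates 1 and 2 and 3.29 in TAZ replicate 1.

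Peaks inside the IL6 span were found with YAP alone. The region from 22770463 to 22770963, about 4.5 to 5.0 kb after the start mark, was called with folds of 3.03 and 3.32 in YAP replicates 1 and 2 and in neither TAZ library. Near the downstream border, from 22801288 to 22801681, the fold was 2.99 and 3.23 for YAP, again with no TAZ peak. A region with the same pattern, from 22795501 to 22796385, had 2.21 and 2.90. Over the whole genome 31105 of 452943 merged regions, and here 4 of 55, had peaks in both YAP libraries and in neither TAZ library. The reverse was true of 6511 regions over the genome and of 0 here. The highest fold of the window came from TAZ replicate 1, at 4.40, in a peak from 22782033 to 22782296 that overlapped a YAP replicate 1 peak of fold 2.47.

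PTGS2 had the most peaks, nearly all outside the gene, whose span, from 186640000 to 186650000, is a small part of the 70 kb window. Its window held 13 and 10 peaks with the YAP antibody, against 13 and 12 with the TAZ antibody, and coverage was 18.8% and 7.46% in the YAP lists, against 14.3% and 12.5% in the TAZ lists. The YAP libraries lay on either side of both TAZ libraries. Of the 18 merged regions, 9 were upstream, 8 downstream and 1 in the gene, and the last had a peak in TAZ replicate 2 alone, with a fold of 3.79. PLA2G4A, which encodes the phospholipase that frees the substrate of COX-2, is the next protein-coding gene on the upstream side.

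At PTGS2, 4 regions had peaks in all 4 libraries. The one with the best combined rank lay on chromosome 1 from 186677133 to 186679691, about 27 to 30 kb upstream, where the fold was 3.35 and 3.11 with the YAP antibody, against 3.46 and 3.34 with the TAZ antibody, the most even of the regions named here with peaks in all 4 libraries. On the downstream side, the region from 186632860 to 186634852 had 2.89 and 3.27 in the YAP lists, against 2.97 and 3.94 in the TAZ lists. The region from 186615411 to 186619323 had 3.64 and 2.81 with the YAP antibody, against 2.99 and 2.80 with the TAZ antibody. In both, 1 library stood above the other 3, TAZ replicate 2 in the first and YAP replicate 1 in the second. A region upstream from 186673733 to 186674177 was called in YAP replicates 1 and 2, with folds of 2.53 and 3.23, and in neither TAZ library.

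**Figure D2:**
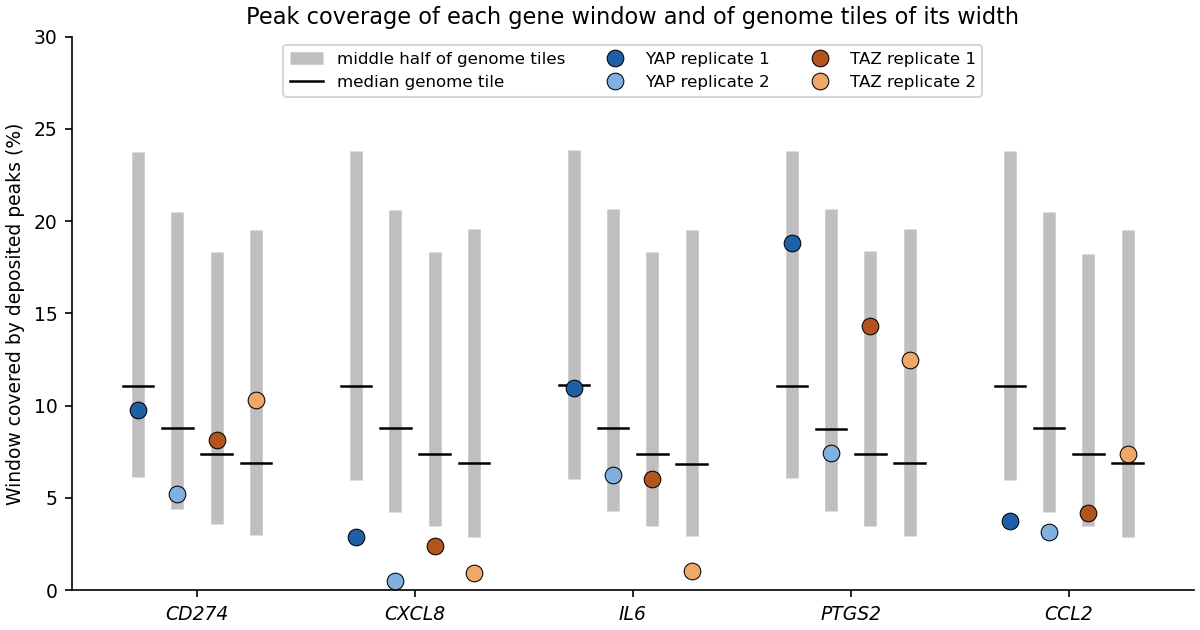
Percent of each gene window covered by deposited peaks (points, 1 per library), beside the median (black line) and the range between the quartiles (grey bar) of genome tiles of the same width in the same library. The CXCL8 points, 0.472% to 2.90%, lie below the grey bars in every library, and the PTGS2 points of 3 libraries lie above the median tile.

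Set in order by coverage, averaged over the 4 libraries, PTGS2 had 13.3% ± 4.7, CD274 8.37% ± 2.30, IL6 6.07% ± 4.06, CCL2 4.62% ± 1.88 and CXCL8 1.67% ± 1.15 (SD, n = 4 libraries of both antibodies). Neighbours in this order had ranges that overlapped, except that every CCL2 value was above every CXCL8 value. To set the windows beside the rest of the genome, chromosomes 1 to 22 and X were cut into tiles of each window's width, keeping tiles with at least 1 peak of any library. The CXCL8 window then stood at percentile 8.99 ± 5.61 of 44163 tiles by coverage, and the CCL2 window at 28.3 ± 17.5 of 44854. IL6 stood at 34.8 ± 17.8, CD274 at 47.4 ± 12.9 and PTGS2 at 61.8 ± 12.1 (SD, n = 4). In 14 of the 20 pairs of a gene and a library, the window was covered less than the median tile, and by their mean percentile PTGS2 and CD274 stood near the middle. Among tiles of its own chromosome CCL2 stood lower, at 6.32. Counting the tiles without any peak as well, CXCL8 stood at 15.2.

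**Figure D3:**
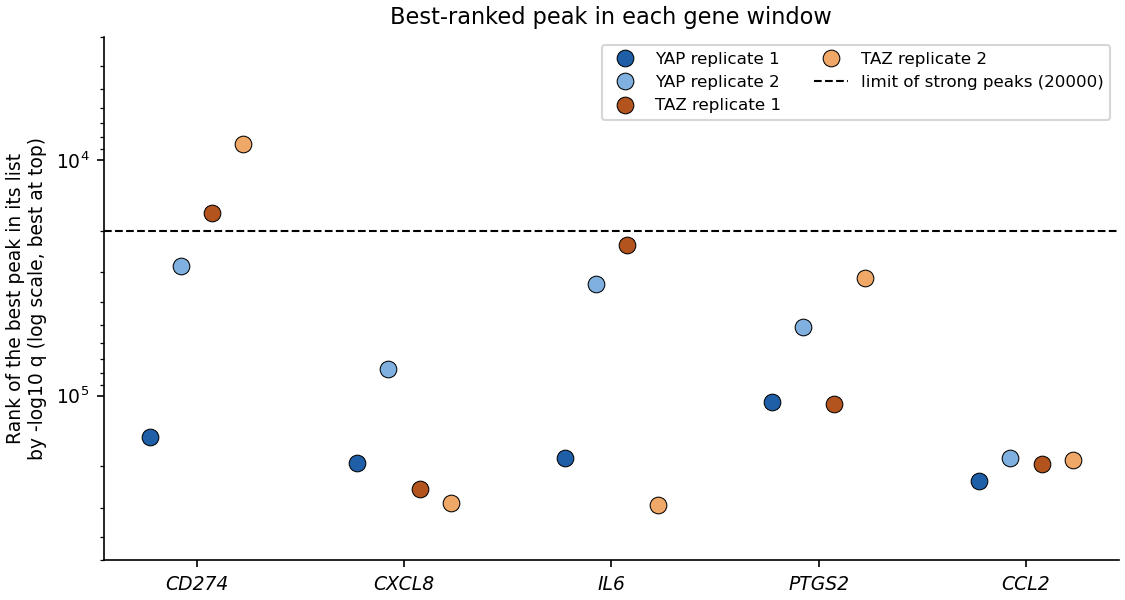
Rank of the best peak of each gene window within its library's list, by −log10 q, on a log axis with the best ranks at the top; the dashed line marks rank 20000. Only the 2 TAZ points of CD274, at ranks 16764 and 8561, lie above the line; the 4 CCL2 points lie between ranks 184208 and 229911.

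Peaks at these genes rarely ranked among the best of their lists. A strong peak was one of the 20000 peaks with the highest −log10 q in its list, with the number kept equal so that list length did not enter. In YAP replicates 1 and 2, 0 of the 5 windows held a strong peak, where 28.8% and 30.7% of 66 kb tiles did. In TAZ replicate 1 it was 1 of 5, against 32.1% of tiles, and in TAZ replicate 2 also 1 of 5, against 31.6%. With 5 windows these shares differ from the tiles by very few genes, and no test was made. The 3 strong peaks were all in the CD274 window. TAZ replicate 1 had the peak 1.8 kb inside the gene, from 5451800 to 5452187, whose fold was 4.50 at rank 16764. TAZ replicate 2 had one upstream from 5432942 to 5434693, with 4.49 at rank 8561, and one downstream from 5491719 to 5492882, with 4.21 at rank 18180. The 2 TAZ libraries thus had their strong peaks at different places. The weakest −log10 q among the 20000 was 7.91 and 5.75 in the YAP lists, against 5.32 and 4.65 in the TAZ lists, so the same −log10 q could be strong in one list and not in another.

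By fold, 6 of the 134 peaks reached 4. Beside the 3 at CD274 just given, these were the YAP replicate 2 peak inside CD274 (fold 4.28, rank 28272), the IL6 upstream peak of YAP replicate 2 (4.15, rank 33544) and the IL6 downstream peak of TAZ replicate 1 (4.40, rank 22938). Of all peaks, 9.22% and 7.52% in the YAP lists and 9.68% and 5.60% in the TAZ lists reached this fold. The median fold of the peaks in the 5 windows was 2.81 and 3.11 with the YAP antibody, against 2.96 and 2.96 with the TAZ antibody, each below the median of its list, which was 3.14 and 3.14 in the YAP lists, against 3.16 and 3.03 in the TAZ lists. The best peak at CCL2 ranked between 184208 and 229911 in all 4 libraries, and at CXCL8 between 77411 and 286391.

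The distance to the nearest strong peak varied widely between genes and libraries. From the CCL2 start mark, the nearest was 896 kb away in both YAP libraries, 351 kb in TAZ replicate 1 and 896 kb in TAZ replicate 2. For YAP replicates 1 and 2 and TAZ replicate 2 it was the same place, which the TAZ replicate 2 peak from 33477584 to 33478494 of chromosome 17 overlapped. There the YAP peaks were strong by −log10 q but not by fold, with 2.32 and 2.74, below the list medians of 3.14 and 3.14. The TAZ replicate 2 peak had a fold of 3.95. From CXCL8 the distances were 299 and 255 kb with the YAP antibody, against 80.0 and 445 kb with the TAZ antibody. From IL6 they were 468 and 646 kb in the YAP lists, against 72.1 and 319 kb in the TAZ lists. At PTGS2 they were 2178 and 157 kb with the YAP antibody, against 225 and 225 kb with the TAZ antibody, the last pair being 1 place called in both TAZ libraries. At CD274 they were 56.8 and 201.5 kb in the YAP lists, against 1.80 and 15.3 kb in the TAZ lists. The median distance from the centre of a 66 kb tile to a strong peak was 97.4 and 79.7 kb with the YAP antibody, against 69.9 and 72.7 kb with the TAZ antibody. CD274 in the TAZ libraries and in YAP replicate 1 was thus nearer than the median tile, while the other 4 genes were farther in every library. Many of these distances were ordinary: 7 of the 20 lay between the quartiles of the tiles, among them 3 of the 4 at CXCL8, while 2 lay below the lower quartile, both at CD274, and 11 above the upper one. The 11 were all 4 at CCL2, 3 each at IL6 and PTGS2 and 1 at CXCL8.

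The series asks how YAP and TAZ binding compare, and at these 5 genes no difference between the antibodies could be established. With 2 libraries against 2, the smallest two-sided p of an exact permutation test is 0.333, and none of the 15 comparisons of peak number, coverage or highest fold on the full lists had an adjusted p below 0.833 (exact permutation test, Benjamini-Hochberg over the 5 genes of each measure). In number of peaks the antibodies overlapped at all 5 genes on the full lists, of which the YAP lists were the longer. Over the genome, both YAP libraries had more peaks than both TAZ libraries in 31.5% of 66 kb tiles, and both TAZ libraries more than both YAP libraries in 5.16%.

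In coverage, IL6 was the 1 gene of 5 with both YAP libraries above both TAZ libraries, which 48.4% of tiles showed. IL6 averaged 8.62% ± 3.32 for YAP and 3.53% ± 3.54 for TAZ, a difference of 5.09 percentage points (SD, n = 2; exact permutation p = 0.333, adjusted 0.833). It was 2.59 points without TAZ replicate 2, and between 2.59 and 7.59 points when each library was left out in turn. CCL2 was, on the full lists, the 1 gene with both TAZ libraries above both YAP libraries, which 5.54% of tiles showed. CCL2 averaged 3.45% ± 0.446 for YAP and 5.79% ± 2.24 for TAZ, a difference of -2.33 points (exact permutation p = 0.333, adjusted 0.833). This was -0.753 points without TAZ replicate 2, and 0.483 points when the flanks were 10 kb, so its direction rests on peaks more than 10 kb from the gene.

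The comparison of peak number and coverage depended on the length of the lists. When each list was shortened to its 310657 best peaks by −log10 q, the length of the shortest, both TAZ libraries had more peaks than both YAP libraries at 3 of the 5 genes, as did 12.6% of tiles, and the reverse held at 1 gene and in 15.5% of tiles. PTGS2 then had 6 and 8 peaks with the YAP antibody, against 12 and 12 with the TAZ antibody. CD274 had 6 and 5 in the YAP lists, against 7 and 9 in the TAZ lists, and CCL2 had 1 and 2 with the YAP antibody, against 5 and 3 with the TAZ antibody. These are the 3 genes at which TAZ was the higher, and IL6, with 6 and 6 peaks for YAP, against 5 and 1 for TAZ, was the 1 gene at which YAP was.

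In coverage the shortened lists separated the same genes in the same directions, TAZ above YAP at 3 of 5 genes, against 11.7% of tiles, and YAP above TAZ at 1, against 33.4% of tiles. PTGS2 was covered to 9.81% and 5.94% in the YAP lists, against 13.5% and 12.5% in the TAZ lists, a difference of -5.11 points where the full lists gave -0.256. The difference was -4.72 points at CD274 and -4.81 at CCL2, where the YAP libraries had 0.981% and 0.978% and the TAZ libraries 4.21% and 7.37%. At IL6 it was 2.64 points, with YAP replicate 1 at 4.81% and TAZ replicate 1 at 4.78%, nearly equal. Each of these differences had an exact permutation p of 0.333, the smallest possible, and 0.417 when adjusted over the 5 genes.

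In highest fold, CXCL8 had both YAP libraries above both TAZ libraries, with 3.30 and 3.80 in the YAP lists, against 2.91 and 2.50 in the TAZ lists; 21.2% of tiles showed this. CD274 had both TAZ libraries above both YAP libraries, with 3.53 and 4.28 with the YAP antibody, against 4.50 and 4.49 with the TAZ antibody, as did 11.4% of tiles. The CD274 difference of -0.590 (exact permutation p = 0.333, adjusted 0.833) was -0.214 without YAP replicate 1 and became 0.0344 with flanks of 10 kb. The CXCL8 difference of 0.838 had the same p and became -0.022 with flanks of 100 kb. At PTGS2 the highest fold was 3.75 and 3.94 in the YAP lists, against 3.61 and 3.94 in the TAZ lists, and at CCL2 3.13 and 3.27 with the YAP antibody, against 3.17 and 2.98 with the TAZ antibody, with overlap in both cases. Among 66 kb tiles, the highest fold of CCL2 stood at percentile 6.89 and 12.0 in the YAP lists, against 9.09 and 9.93 in the TAZ lists, low in all 4 libraries.

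Few regions in these windows were called in every library. Of the 55 merged regions in the 5 windows, 10 (18.2%) had peaks in all 4 libraries, against 39.2% of the 452943 merged regions of the genome. Peaks of a single library made up 15 (27.3%) here and 22.4% over the genome. At least 1 region with peaks in all 4 libraries was present in 3 of the 5 windows, CD274 with 5, PTGS2 with 4 and CCL2 with 1, whereas 87.3% of 66 kb tiles held one. These counts depend on list length and on chaining. Another count took single YAP replicate 1 peaks that had a reciprocal overlap of 50% with a peak of each other library. It gave 1 at CD274, 0 at PTGS2 and 0 at CCL2. The regions with peaks in all 4 libraries had a median width of 2276 bp and the other regions 618 bp, in part because merging more peaks makes a region wider. Their fold in single libraries, that of the peak with the highest −log10 q, ran between 2.34 and 4.50.

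Measured in bases, the Jaccard index, the bases covered in both libraries divided by those covered in either, was 0.287 between the YAP libraries and 0.220 between the TAZ libraries within the windows. Between antibodies it was 0.288 for the libraries numbered 1, 0.155 for those numbered 2, 0.242 for YAP replicate 1 with TAZ replicate 2 and 0.229 for YAP replicate 2 with TAZ replicate 1. The index within an antibody was thus not set apart from that between antibodies. Over the whole lists the same index was between 0.494 and 0.612, above the value in the windows for each of the 6 pairs. The windows hold few bases, so these values move with single wide peaks.

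Coverage depended on how far from the gene one looked. Within the gene span alone, CXCL8 and CCL2 had 0% in all 4 libraries, and PTGS2 had 0% in all but TAZ replicate 2, where it was 2.68%. These spans are a small part of their windows. The share of stretches of their length without a peak was not computed, so their lack of peaks is not shown to be unusual. The CD274 span had 3.87% and 1.55% with the YAP antibody, against 3.06% and 3.31% with the TAZ antibody. Within 100 kb of the gene on each side, IL6 reached 15.9% and 7.94% in the YAP lists, against 9.92% and 7.28% in the TAZ lists, and CXCL8 held 19 and 11 peaks with the YAP antibody, against 9 and 6 with the TAZ antibody. CCL2 was covered less within 100 kb than within 30 kb, with 1.46% and 1.87% in the YAP lists, against 2.15% and 2.90% in the TAZ lists within 100 kb. Just beyond the 30 kb borders, the nearest regions lay 5.53 and 3.26 kb outside at CD274, 7.81 and 4.37 kb at CXCL8, 2.97 and 1.44 kb at IL6 and 4.34 and 2.48 kb at PTGS2. At CCL2 they lay 16.3 and 15.6 kb outside, each with a peak of 1 library.

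**Figure D4:**
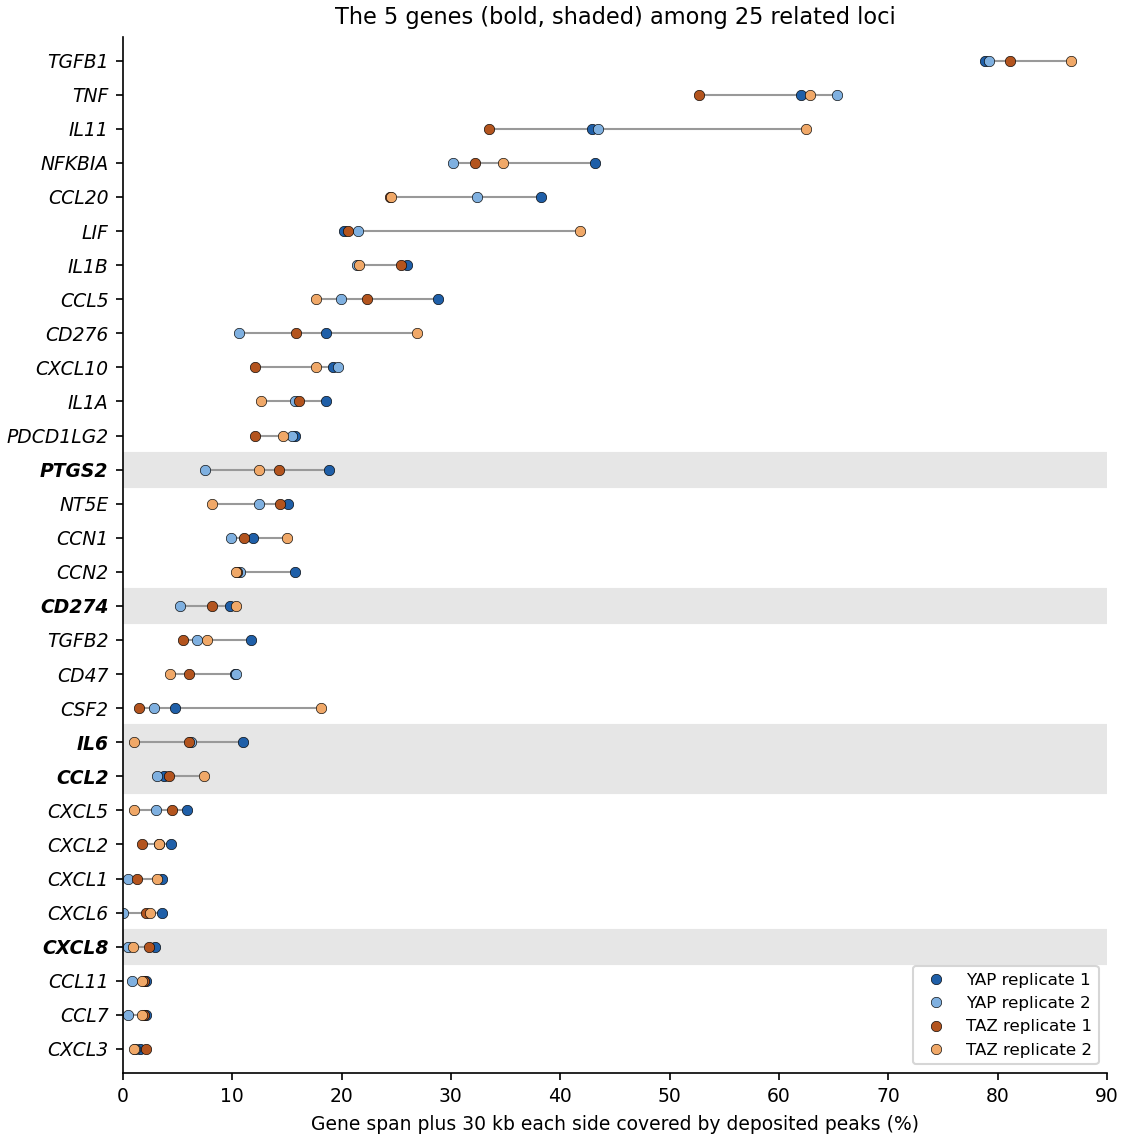
Percent of the gene span plus 30 kb on each side covered by deposited peaks, 1 point per library, for the 5 genes (bold, shaded) and 25 related loci in order of their mean. The TGFB1 points lie between 78.9% and 86.7%, and CXCL8 stands among the CXCL and CCL cluster genes at the bottom, with 0.472% to 2.90%.

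The same measure was taken at 25 related loci: 4 checkpoint or immune-suppressive surface genes, 10 chemokine genes, 8 cytokine genes, NFKBIA, which encodes the feedback inhibitor of NF-kB, and the YAP and TAZ target genes CCN1 and CCN2. Some of these windows overlap each other or those of CD274 and CCL2, so they are not independent. The median coverage of the 5 genes was 9.78% and 5.22% with the YAP antibody, against 6.03% and 7.37% with the TAZ antibody. For the 23 related immune loci it was 15.7% and 12.5% in the YAP lists, against 12.1% and 14.7% in the TAZ lists, and for 66 kb tiles 11.1% and 8.78% with the YAP antibody, against 7.36% and 6.86% with the TAZ antibody. By mean coverage, 12 of the 25 loci stood above all of the 5 genes. A strong peak in at least 1 library was found at 1 of the 5 genes and at 14 of the 23 immune loci, and in all 4 libraries at 3 of these 23. Library by library, 7 and 6 of the 23 held one in the YAP lists, against 8 and 6 in the TAZ lists. Of 66 kb tiles, 28.8% and 30.7% did in the YAP lists, against 32.1% and 31.6% in the TAZ lists. The tile share for at least 1 library or for all 4 was not computed, and some windows were wider, such as 121 kb at PDCD1LG2. A peak within 1 kb of the gene start was found in all 4 libraries at 3 of the 19 immune loci of known strand, and in no library at 10. By single library it was 5 and 6 of the 19 in the YAP lists, against 5 and 8 in the TAZ lists. Of all 2 kb stretches, 40.8% and 36.2% had a peak in the YAP lists, against 33.6% and 32.9% in the TAZ lists. The share of stretches with a peak in all 4 libraries, or in none, was not computed.

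Coverage was lowest at the CXCL cluster on chromosome 4 and beside CCL2. The 5 CXCL genes beside CXCL8 on chromosome 4 (CXCL1, CXCL2, CXCL3, CXCL5 and CXCL6), which draw neutrophils as CXCL8 does, held 2 regions with peaks in all 4 libraries and no strong peak. The lowest of all was CXCL3, with 1.60% and 1.10% in the YAP lists, against 2.12% and 1.04% in the TAZ lists. CCL7 and CCL11, which encodes an eosinophil chemokine, came next with 1.55% and 1.66% on average. Not all chemokine loci were low: CCL20 averaged 29.9%, CCL5 22.2% and CXCL10 17.1%, loci picked out here after their values were seen. The median over the 10 chemokine loci was 2.65%, that over the 4 checkpoint loci 13.5% and that over the 8 cytokine loci 24.8%. The highest was TGFB1, an immunosuppressive cytokine gene, with 78.9% and 79.3% with the YAP antibody, against 81.1% and 86.7% with the TAZ antibody. That coverage came from 9 and 9 peaks in the YAP lists, against 9 and 5 in the TAZ lists, so it reflects wide peaks rather than many. TNF averaged 60.7% ± 5.55 and IL11 45.6% ± 12.1 (SD, n = 4).

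PDCD1LG2, beside CD274, averaged 14.5% ± 1.66 and had 12 regions with peaks in all 4 libraries, part of its window being shared with CD274. CCN1 and CCN2, matrix protein genes that are standard readouts of YAP and TAZ activity, averaged 12.0% ± 2.19 and 11.8% ± 2.63 (SD, n = 4), below PTGS2 and above the other 4 genes. Unlike the 5 genes, CCN2 had strong peaks in every library, 1 and 2 in the YAP lists, against 2 and 3 in the TAZ lists, whereas CCN1 had 0 in each. The best peak of CCN2 ranked 8048 and 3410 with the YAP antibody, against 6574 and 2105 with the TAZ antibody. The related locus whose coverage was closest over the 4 libraries was TGFB2 for CD274 (mean absolute difference 2.20 percentage points), CCL7 for CXCL8 (0.523), CD47 for IL6 (2.04), IL1A for PTGS2 (2.62) and CXCL2 for CCL2 (1.85).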

How the data were processed

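The data were 4 lists of broad peaks, 1 for each antibody library; the 2 input samples entered only through them. Bowtie2, MACS2, SAMtools, cutadapt and the build hg19 are named per the submitters' processing notes, without roles; their versions are not given in the sources used here. Peaks were called separately in each library, as the deposited lists show. The deposited fold is the caller's enrichment value for a peak, called fold over input here, and the deposited −log10 p and −log10 q are likewise the caller's own. How the caller formed its background from the input was not examined, so the fold need not be a plain ratio of ChIP to input signal. The deposited score, a whole-number form of the −log10 q, was not used. Lists hold no read totals, so depth is unknown and no interval from counts can be given.

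Coordinates count from 1. Peaks were assigned by an overlap of at least 1 bp with the gene span plus 30 kb. Strong peaks were the 20000 with the highest −log10 q per list, equal values being ordered by −log10 p, then fold, then position. Overlap, coverage and percentiles were computed in Python 3.11.15 with NumPy 2.4.6 and pandas 2.3.3 and tested on simulated lists. A percentile is the percent of tiles below the window, by midrank where values were equal. Tiles for background shares were 66 kb wide. The 5 genes and all lists were chosen with earlier results of these data known. The spans of the 25 related loci were set by hand to the nearest kb of hg19; all 25 matched the chromosome, and the span length within 2 kb, of the RefSeq table (GRCh38.p14), from which neighbouring genes and strands also came, the CCL2 strand excepted, which is textbook knowledge. Regions named were those with peaks in all 4 libraries and the lowest sum of ranks (at most 3 per gene), regions with peaks of both libraries of 1 antibody only (at most 2 per gene), and any at the gene start; others in the text were chosen after their values were seen. Related loci named were the neighbours PDCD1LG2, CCL7 and CCL11, CCN1 and CCN2, the 3 highest and 3 lowest by coverage, and the closest to each gene.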

Additional observations from a re-analysis of the deposited data

How the results depend on the processing

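Many of the YAP minus TAZ differences changed sign with the processing; the causes were not tested. For IL6, coverage stayed higher with YAP under each alternative tried, by 0.0788 points at the least (peaks with a fold of at least 4); peak number did too, except that it was equal (a difference of 0) for those peaks. Among peaks with a −log10 q of at least 2, PTGS2 gave 1 peak and 1.63 percentage points. With a fold of at least 4, CD274 gave -1 peak; a difference in highest fold could not be computed at any of the 5 genes. With lists shortened to the shortest, CD274 gave -2.5 peaks, PTGS2 -5 and CCL2 -2.5, and coverage differed by -4.72 points at CD274, -5.11 at PTGS2, -4.81 at CCL2 and -0.216 at CXCL8. With 10 kb flanks, coverage differed by 0.0866 points at CD274, 3.36 at PTGS2 and 0.483 at CCL2, and highest fold by 0.0344 at CD274 and -0.533 at PTGS2. With 100 kb flanks, coverage differed by 1.64 points at CD274 and 3.05 at PTGS2, highest fold by 0.169 at CD274, -0.022 at CXCL8 and -0.0759 at PTGS2, and peak number by 2 at PTGS2 and 0.5 at CCL2.

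Leaving out each library in turn, peak number differed by -0.5 to 3.5 at CD274, -0.5 to 3.5 at CXCL8, 1.5 to 7.5 at IL6, -2.5 to 0.5 at PTGS2 and -1.5 to 0.5 at CCL2. Coverage differed by -4.02 to 0.540 points at CD274, -1.19 to 1.23 at CXCL8, 2.59 to 7.59 at IL6, -5.93 to 5.42 at PTGS2 and -3.92 to -0.753 at CCL2. Highest fold differed by -0.966 to -0.214 at CD274, 0.589 to 1.09 at CXCL8, -0.639 to 1.29 at IL6, -0.0927 to 0.240 at PTGS2 and 0.0292 to 0.215 at CCL2. Regions with peaks in all libraries kept numbered 0 to 1 at CXCL8, 0 to 3 at IL6 and 0 to 2 at CCL2.

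Regions with peaks in all 4 libraries numbered 5 at CD274, 4 at PTGS2, 1 at CCL2 and 0 at CXCL8 and IL6. With a −log10 q of at least 2 there were 2 at CD274, 2 at PTGS2 and 0 at CCL2. With a fold of at least 4 there were 0 at each of these 3 genes, and with shortened lists 2 at CD274 and 0 at CCL2. Counting YAP replicate 1 peaks with a reciprocal overlap of 50% in each other library, in place of merged regions, gave 1 at CD274 and 0 at PTGS2 and CCL2. Flanks of 10 kb left 1 at CD274, 1 at PTGS2 and 0 at CCL2, and flanks of 100 kb gave 14 at CD274, 3 at CXCL8, 8 at IL6 and 9 at PTGS2. By percentile of coverage, CXCL8 moved to 15.2 among all tiles and CCL2 to 6.32 within its chromosome; the omission of single libraries there was added after seeing the data.

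With the replicate number as a block, the differences were the same by construction (5.09 points for IL6), and an exact sign-flip test over 2 pairs cannot give a p below 0.5. The labels do not say that a number marks a shared culture or day; over 42837 tiles, same-numbered libraries deviated together in coverage (r = 0.336). The unknown read depth limits every statement on a missing peak.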
